A study of Homo sapiens with 24 samples.

Results

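The 43 genes described here form the machinery of mitotic entry and of the spindle. They were chosen by name, as genes of the CDK1-cyclin engine, the mitotic kinases, the chromosomal passenger complex, the spindle checkpoint, chromosome separation, the spindle itself, chromosome structure, cytokinesis and the transcription of these genes, and all 43 were found among the 30982 gene names of the array. All 43 also passed the filter on dim probes, which left 22847 gene names for testing. The cells were U87 MG, an established human glioblastoma line, and RNA was taken 24 h after proton therapy (PT). In U87 2 Gy and U87 10 Gy, cells irradiated with 2 or 10 Gy were compared with untreated cells. In U87 Si306 + 2 Gy, as in U87 Si306 + 10 Gy, cells given 10 µM Si306, a small-molecule inhibitor of the SRC kinases, before the same dose were compared with cells given that dose alone. Every array carried the treated RNA in Cy5 and the control RNA in Cy3, without a dye swap, and no array carried cells given Si306 without PT.

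Entry into mitosis is set off when CDK1, called CDC2 on this array, is bound by cyclin B and released from the inhibitory phosphates that WEE1 adds and the CDC25 phosphatases remove. PLK1 and the Aurora kinases then build the spindle, the checkpoint proteins delay separation of the sister chromatids until every kinetochore is attached, and the anaphase-promoting complex (APC/C) with CDC20 and UBE2C marks cyclin B and securin for destruction. Cells that carry DNA damage after irradiation can stop in G2 before this machinery starts, and in p53-proficient cells transcription of many of these genes is repressed through the DREAM complex.

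A promoter layout found in many of these genes is shown first because it is a feature that the choice of members by function did not use. The elements searched were the cell cycle genes homology region (CHR, TTTGAA or, on the other strand, TTCAAA), its palindromic variant TTTAAA, and the CCAAT box (CCAAT or ATTGG), which is bound by NF-Y. RefSeq promoter windows on GRCh38.p14, from 250 bases before to 50 bases after the annotated start, were at hand for 34 of the 43 genes. No window was at hand for WEE1, AURKA, TTK, PBK, BIRC5, UBE2C, TPX2, RACGAP1 and FOXM1. The 110 bases that end directly before the start are printed 5′ to 3′ on the gene's strand for 10 genes: CCNB1, CCNB2, CDC2 and PLK1 as the core of the CDK1 engine and its main kinase, CDC20 for the APC/C, and CKS2, NEK2, ANLN, CEP55 and ZWINT because they were among the largest rises or falls of at least 1 configuration. For CDC2 and ZWINT, which have 2 annotated starts each, the stretch with the most of these elements was printed. For CDC2 that is the stretch before the later start, at base 60778478, and the window of its first start held a CHR at -161 and a CCAAT box at -150, outside the 110 bases before that start. Capitals mark the CHR, its variant and the CCAAT boxes. The windows lie at chr5:69167040-69167149 (CCNB1), chr15:59105036-59105145 (CCNB2), chr10:60778368-60778477 (CDC2), chr16:23678779-23678888 (PLK1), chr1:43358871-43358980 (CDC20), chr9:89311085-89311194 (CKS2), chr7:36389752-36389861 (ANLN) and chr10:93496502-93496611 (CEP55), all on the + strand, and at chr1:211675622-211675731 (NEK2) and chr10:56361274-56361383 (ZWINT) on the - strand.
CCNB1: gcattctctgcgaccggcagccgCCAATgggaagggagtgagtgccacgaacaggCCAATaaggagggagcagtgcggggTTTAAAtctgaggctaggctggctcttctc
CCNB2: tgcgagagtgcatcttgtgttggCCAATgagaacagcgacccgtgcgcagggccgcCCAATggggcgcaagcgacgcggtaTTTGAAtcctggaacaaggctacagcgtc
CDC2: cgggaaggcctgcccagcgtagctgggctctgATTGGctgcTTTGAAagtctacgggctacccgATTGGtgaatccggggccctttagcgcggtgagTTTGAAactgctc
PLK1: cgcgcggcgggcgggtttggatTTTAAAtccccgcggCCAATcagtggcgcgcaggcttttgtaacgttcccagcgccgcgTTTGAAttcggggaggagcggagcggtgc
CDC20: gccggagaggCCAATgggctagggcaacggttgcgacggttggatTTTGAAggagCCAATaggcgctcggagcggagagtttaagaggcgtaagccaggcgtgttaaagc
CKS2: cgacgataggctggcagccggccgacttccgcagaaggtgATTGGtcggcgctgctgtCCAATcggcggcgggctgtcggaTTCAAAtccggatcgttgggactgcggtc
NEK2: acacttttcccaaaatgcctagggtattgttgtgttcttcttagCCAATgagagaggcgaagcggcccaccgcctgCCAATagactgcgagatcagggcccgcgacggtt
ANLN: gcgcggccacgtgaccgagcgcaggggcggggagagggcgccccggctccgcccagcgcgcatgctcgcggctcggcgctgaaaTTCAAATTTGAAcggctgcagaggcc
CEP55: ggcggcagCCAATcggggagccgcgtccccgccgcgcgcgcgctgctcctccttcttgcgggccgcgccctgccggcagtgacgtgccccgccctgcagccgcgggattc
ZWINT: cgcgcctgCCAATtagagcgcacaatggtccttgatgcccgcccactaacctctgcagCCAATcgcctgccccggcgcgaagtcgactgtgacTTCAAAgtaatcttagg

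CCNB2, PLK1 and CKS2 held their CHR at the same place, with its first base 29 bases before the start. CCNB1 held the variant TTTAAA at -30 and CCAAT boxes at -87 and -55, which is nearly the spacing of CCNB2, with boxes at -87 and -54. ANLN had a reverse and a forward CHR side by side at -26 and -20 and no CCAAT box in the printed stretch. NEK2 had boxes at -66 and -34 and no CHR letters anywhere in its window. CEP55 had a box at -102, and its CHR letters, at -116 and across the start at -3, fell outside the stretch printed. Over the whole windows, counting a gene where any of its windows held the element, 24 of 34 members (70.6%) held a CHR, against 18.2% of all 27305 genes with a window, and 28 (82.4%) held a CCAAT box, against 39.7% of all genes. Both elements stood in 1 window in 21 members (61.8%), against 7.26% of all genes. In the 60 bases before the start the CHR was found in 15 members (44.1%), against 3.42% of all genes. A match of letters is a description of the sequence and does not show that a factor binds there.

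**Figure D1:**
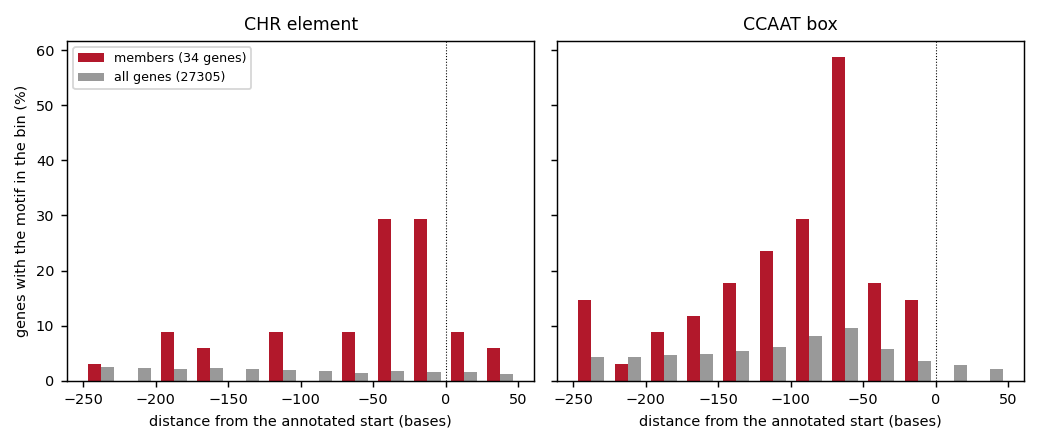
Share of genes (vertical axis, %) whose promoter window holds the CHR (left) or the CCAAT box (right) in each bin of 25 bases, by distance from the annotated start (horizontal axis, bases), for the 34 members with a window (red) and all 27305 genes (grey). CHR letters stood in 29.4% of members in each of the last 2 bins before the start, and CCAAT boxes peaked in the bin that begins 75 bases before it, at 58.8% of members.

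Each configuration had 2 arrays, and every array was scanned 3 times. Of the 24 scans, 2 carried the label of the other dose of PT alone and were left out: they differed from the other scans of the array they were on by an SD of 0.0769 and 0.0754 over all genes (log2), and from arrays of their label by 0.180 and 0.174. Scans of an array were averaged, so n is 2 arrays throughout, and whether these came from separate cultures is not given. The p-values therefore measure only the spread between 2 arrays, which may be technical. Between the 2 arrays of a configuration, scans differed over the members by a median SD of 0.0766. With so small a spread, limma called 24.9% to 28.1% of all genes lower and 31.2% to 38.8% higher at an adjusted p under 0.05 in each configuration, so the share of all genes called is given with the counts over all 43 genes, and the counts of the role groups below stand against the same shares. On all 8 arrays and in both dyes the 43 member probes were well above background. The U87 line's markers (VIM, CD44, NES, FN1 and 5 others) were also detected on every array in both dyes, as were GFAP and CD14, while AQP4, PTPRC, CDH1 and KRT5 were detected on none. In RNA from a whole culture, fewer cells in G2 and M and less RNA of these genes per cell cannot be told apart.

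The sign of the group medians depended on how the dyes were normalized, and for some genes, named with their values, the sign also depended on the probe. The member probes were bright, with a median of 10.99 on the log2 intensity scale against 8.165 for all tested genes, and on every array the ratio of Cy5 to Cy3 rose with brightness. The loess curve that removes this slope took 0.462 to 0.961 (log2) off the median member and 0.301 to 0.483 off the median gene. Without it, when each array was only centred on its median, the median of all tested genes stood at 0.22 to 0.42, and relative to that median the 43 genes stood at 0.01 (U87 2 Gy), -0.19 (U87 10 Gy), 0.24 (U87 Si306 + 2 Gy) and 0.24 (U87 Si306 + 10 Gy). The scanner software's own dye normalization gave medians of -0.29, -0.42, -0.24 and -0.13, the same sign as loess. A model of the separate channels with a dye effect for each probe, in which the dye effect is learned from irradiated RNA that was in Cy5 on 1 slide and in Cy3 on the other, gave 0.65, 0.57, 0.68 and 0.76. Since dyes were not swapped, a dye effect of a probe and the treatment cannot be told apart within a configuration. A constant dye effect of a probe cancels in the difference between the 2 doses, which was measured on arrays of the same slide. The configurations of PT alone were on 1 slide and those with Si306 on the other, so slide and Si306 cannot be told apart between them. All values below are log2 ratios after loess unless median centring is named.

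After loess, the 43 genes were on balance lower in all 4 configurations, and their median had the opposite sign in every one of them after median centring and in the model of separate channels. In U87 2 Gy, 32 of 43 fell and 7 rose, where 24.9% of all genes fell and 32.1% rose, and the median member stood at -0.21 against 0.02 for all genes. In U87 10 Gy, 31 fell and 4 rose (26.3% and 31.2% of all genes), and the median was -0.35 against 0.02. With Si306 added, 29 fell and 3 rose at 2 Gy (28.1% and 38.8% of all genes, medians -0.23 and 0.04), and 24 fell and 6 rose at 10 Gy (27.1% and 35.2%, medians -0.13 and 0.03). Falls of at least 0.5 on the log2 scale, a limit chosen after the values were seen, numbered 6, 15, 4 and 4 of 43 in this order of configurations, against 1.62%, 2.51%, 3.28% and 2.74% of all genes. Among the 4 configurations, NEK2 and ANLN in U87 10 Gy were the members to reach a 2-fold change, where 0.144% of all genes were at least 2-fold lower. On single arrays the median member lay between -0.35 and -0.12, below the median gene on all 8 arrays.

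After median centring 32, 19, 40 and 36 of the 43 genes were called higher, in the order used above, where 57.4% to 63.3% of all genes were, and 5, 14, 2 and 1 were called lower, where 25.7%, 24%, 25.7% and 21.4% of all genes were. The share of members called lower was thus above that of all genes in U87 10 Gy and below it in the other configurations. Some falls were called under both scalings, loess and median centring. Of the 32 genes lower in U87 2 Gy, these were CCNA2, CDC25C, NEK2, BUB1B and ANLN, 5 in all, and 21 turned higher after median centring. Of the 31 lower in U87 10 Gy it was 14, namely CCNA2, CDC25C, NEK2, BUB1B, ANLN, CCNB1, WEE1, PLK1, AURKA, BUB1, UBE2C, ASPM, TPX2 and TOP2A, and 8 turned higher. With Si306 it was AURKB and NUSAP1 at 2 Gy and CEP55 at 10 Gy, and 26 of 29 and 17 of 24 turned higher. Every member called higher after loess, 7, 4, 3 and 6 by configuration, was also higher after median centring. In the model of separate channels 2 of them were lower as well, PLK1 in U87 10 Gy (-0.45) and NUSAP1 in U87 Si306 + 2 Gy (-0.16), and the others of these falls were above 0. MYBL2, higher after PT alone under both scalings, was at -0.11 and -0.04 in that model. Across the 43 genes, which share the arrays, Spearman's rho between both scalings was 0.87, 0.96, 0.63 and 0.82.

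**Figure D2:**
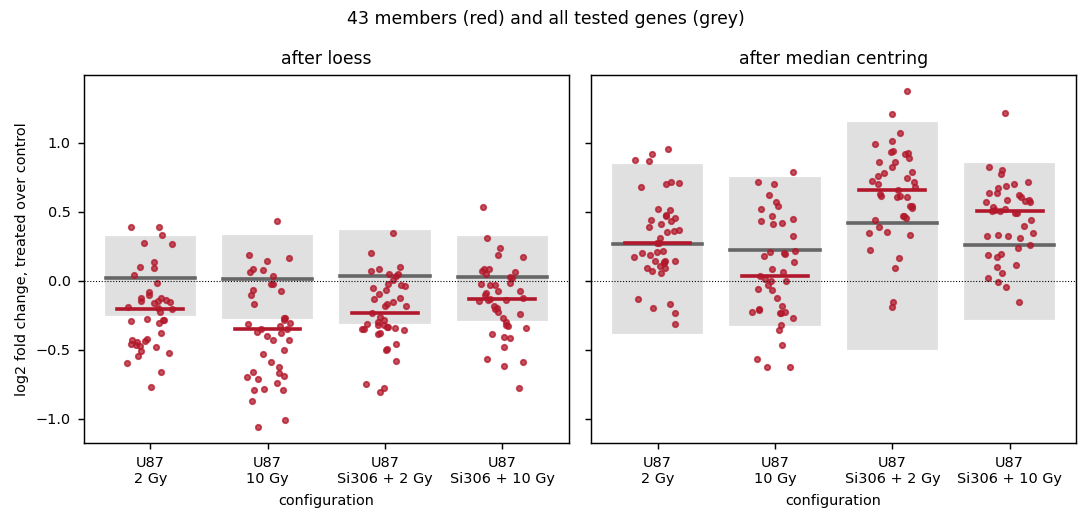
Log2 fold change of treated over control RNA (vertical axis) in the 4 configurations (horizontal axis), after loess (left) and after median centring (right). Red points are the 43 members and the red line their median; the grey box spans the middle of all tested genes and the grey line is their median. The red medians of -0.21, -0.35, -0.23 and -0.13 on the left turn to 0.28, 0.03, 0.66 and 0.50 on the right.

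**Figure D3:**
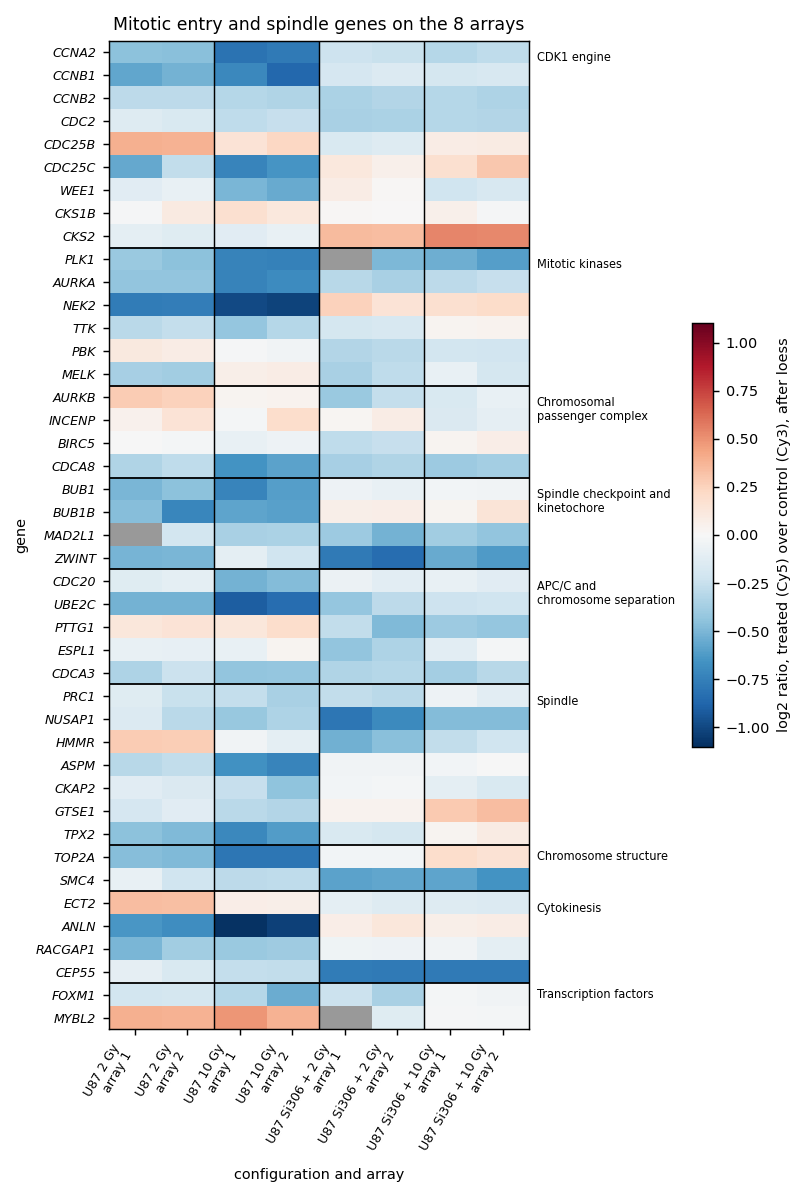
Log2 ratio of treated (Cy5) over control (Cy3) after loess for each of the 43 genes (rows, grouped by role) on each of the 8 arrays (columns, 2 per configuration). Blue is lower and red higher in the treated cells, and grey marks the 3 gene and array pairs without an unflagged spot; ANLN and NEK2 are the darkest blue in U87 10 Gy and turn pale red with Si306, while CEP55, ZWINT, NUSAP1 and SMC4 are blue on the Si306 arrays.

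In the comparison between doses each probe met the same dyes on the same slide. On both slides the arrays of the 2 Gy configurations were at positions 1 and 4, those of 10 Gy at positions 2 and 3. Dose and position on the slide therefore cannot be told apart. Both doses share the untreated control. With PT alone, 22 of 43 genes were lower and 2 higher at 10 Gy than at 2 Gy, where 11.1% of all genes were lower and 9.87% higher, and the median difference was -0.16 against -0.01 for all genes. The direction held after median centring, with 25 lower and 1 higher (11.7% and 4.98% of all genes) and a median of -0.24 against -0.01 for all genes, and 20 of the 22 genes were called lower under both scalings. In the model of separate channels it was 18 lower and 2 higher (8.12% and 5.1% of all genes), and all 24 genes called after loess had the same sign there. The largest falls from 2 to 10 Gy were those of WEE1, -0.43 ± 0.048 (SE, limma adjusted p = 2.43e-04), ASPM, -0.40 ± 0.046 (SE, limma adjusted p = 2.38e-04), and ANLN, -0.40 ± 0.047 (SE, limma adjusted p = 3.28e-04), followed by CDC20, UBE2C, HMMR, CCNA2, CDCA8, TOP2A and PLK1 at -0.38 to -0.31. CCNB1 differed by -0.24 ± 0.056 (SE, limma adjusted p = 0.0117). CDC2 (-0.11), CCNB2 (-0.04) and BUB1B (0.01) were not called. MELK, with 0.45 ± 0.052 (SE, limma adjusted p = 2.68e-04), and ZWINT, with 0.34 ± 0.052 (SE, limma adjusted p = 0.00129), were higher at 10 Gy, and MELK stayed so after median centring (0.36). These calls rest on leaving out the 2 scans with the other dose's label. With all scans kept under their labels limma called no member and no gene of the array, and 2 members and 336 genes had an unadjusted p under 0.05. The median difference of the members shrank to -0.068, and 35 of 43 members lay below the median of all genes. Without the whole of both arrays that held such a scan, 14 members were lower and 2 higher (4.77% and 4.5% of all genes), with 1 array left at each dose, whose spread was assumed to be that between the Si306 arrays.

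**Figure D4:**
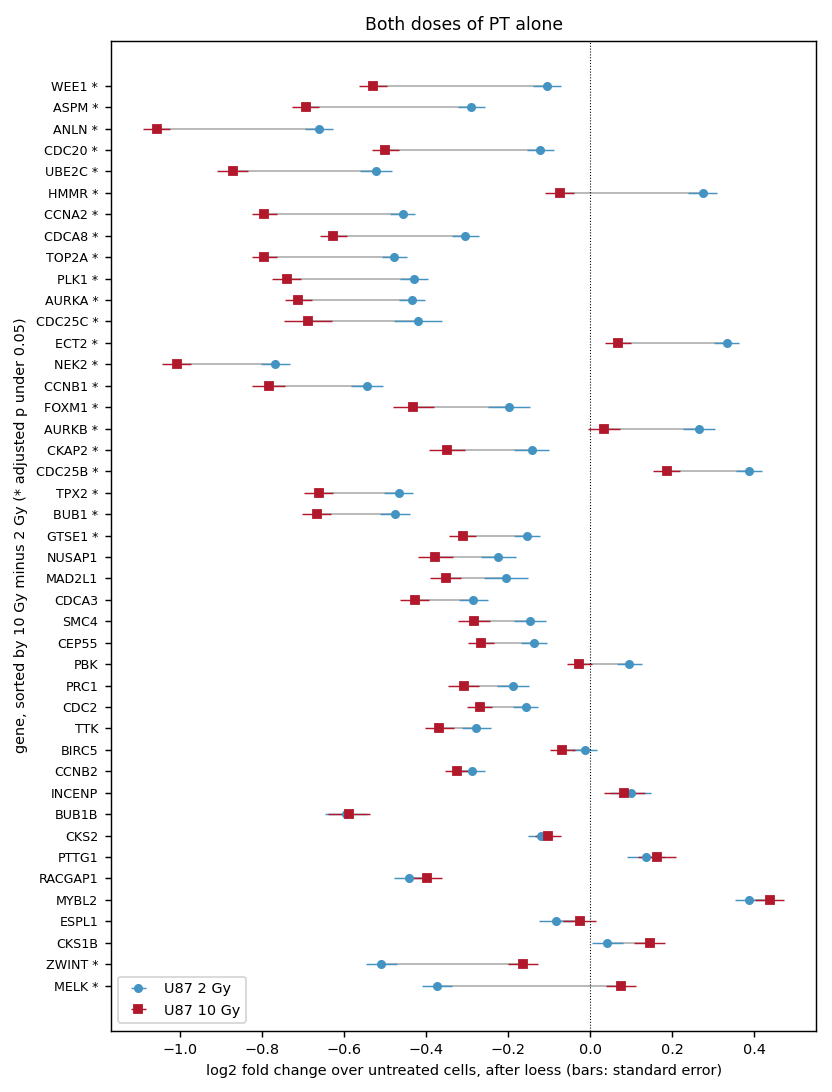
Log2 fold change over untreated cells after loess (horizontal axis) for each of the 43 genes (vertical axis, sorted by the difference between doses) in U87 2 Gy (blue circles) and U87 10 Gy (red squares), with standard errors as bars and a star at genes whose doses differed at an adjusted p under 0.05. Grey lines join the doses; the red square lies left of the blue circle in 34 of 43 genes, and MELK and ZWINT at the bottom run the other way.

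The cyclins and CDK1 itself did not move alike. CCNB1, cyclin B1, read -0.57 and -0.52 on the 2 arrays of U87 2 Gy, a log2 fold change of -0.54 ± 0.039 (SE, n = 2 arrays, limma adjusted p = 9.10e-07), and -0.71 and -0.86 in U87 10 Gy, a log2 fold change of -0.78 ± 0.039 (SE, n = 2 arrays, limma adjusted p = 5.02e-08). The arrays of the doses did not overlap, and the fall at 10 Gy, though not that at 2 Gy (0.10), was also a fall after median centring (-0.27). Cyclin A2, CCNA2, which acts before and at the start of mitosis, read -0.45 and -0.46 at 2 Gy and -0.81 and -0.77 at 10 Gy, and was lower under both scalings at both doses. Its fall at 10 Gy was 1.73-fold after loess. CCNB2 (cyclin B2) was lower by about the same amount at both doses, with -0.29 and -0.29 at 2 Gy, then -0.32 and -0.33 at 10 Gy, and 0.35 and 0.21 after median centring. Its dimmer probe read -0.29 and -0.28. CDC2, the kinase, had the smallest fall of these 4, with -0.15 and -0.17 at 2 Gy and -0.28 and -0.26 at 10 Gy, and after median centring it was higher at both doses (0.39 and 0.18).

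With Si306, CDC2 had lower ratios than CCNB1 at both doses after loess. CDC2 read -0.36 and -0.35 in U87 Si306 + 2 Gy, and -0.31 and -0.32 at 10 Gy. CCNB1 read -0.18 and -0.15 at 2 Gy, and -0.19 and -0.18 at 10 Gy. All 8 of these ratios were below 0 after loess. The fitted values of both genes were above 0 after median centring, between 0.33 and 0.89. CCNB2 was lower with Si306 on its brighter probe after loess (-0.34 and -0.32), but its dimmer probe read 0.08 and 0.03. CKS2, a small subunit that docks CDK1 to its substrates, was the gene that rose most with Si306: it read 0.35 and 0.34 at 2 Gy and 0.53 and 0.53 at 10 Gy, the latter a change of 0.53 ± 0.031 (SE, n = 2 arrays, limma adjusted p = 1.91e-07). Its rise had the same sign under median centring (1.37 and 1.22), and with PT alone it was lower after loess (-0.12 and -0.10) and higher after median centring (0.52 and 0.42). Its paralog CKS1B was not called with Si306, with 0.01 and 0.02, but another of its 3 probes read -0.37 and -0.54. With PT alone at 10 Gy CKS1B rose (0.18 and 0.11) under both scalings.

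The regulators of CDK1 phosphorylation went different ways with PT alone. CDC25B, a phosphatase that activates CDK1, was higher under both scalings, with 0.39 and 0.38 at 2 Gy and a smaller rise of 0.15 and 0.23 at 10 Gy. CDC25C, of the same family, was lower under both scalings, with -0.57 and -0.27 on the 2 Gy arrays and -0.73 and -0.65 on the 10 Gy arrays. WEE1, the kinase that opposes them, read -0.13 and -0.08 at 2 Gy, with 0.27 after median centring, and fell under both scalings at 10 Gy, to -0.51 and -0.55, a change of -0.53 ± 0.034 (SE, n = 2 arrays, limma adjusted p = 3.00e-07). With Si306, CDC25C rose at 10 Gy (0.18 and 0.29) under both scalings and was not called at 2 Gy (0.11 and 0.05).

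Of the 6 mitotic kinases, 5 fell and 1 rose in U87 2 Gy, and 4 fell and 2 were not called in U87 10 Gy, after loess. NEK2, which splits the centrosomes at mitotic entry, read -0.77 and -0.76 at 2 Gy and -0.99 and -1.02 at 10 Gy. The latter was 2.01-fold lower, a log2 fold change of -1.01 ± 0.034 (SE, n = 2 arrays, limma adjusted p = 2.88e-09), and the sign held under both scalings at both doses. PLK1, which acts at the centrosomes, the kinetochores and the midzone, read -0.41 and -0.46 at 2 Gy and -0.73 and -0.75 at 10 Gy, a change of -0.74 ± 0.034 (SE, n = 2 arrays, limma adjusted p = 8.23e-08) at the higher dose. At 2 Gy PLK1 turned to 0.20 after median centring, while at 10 Gy it stayed at -0.23. A dimmer PLK1 probe read -0.07 and -0.22 at these doses. AURKA, the Aurora kinase of the spindle poles, read -0.43 and -0.44 at 2 Gy, then -0.73 and -0.69 at 10 Gy, close to PLK1, and was likewise lower under both scalings at 10 Gy alone. MELK, a kinase of proliferating cells, read -0.37 and -0.38 at 2 Gy and 0.07 and 0.09 at 10 Gy, where it was not called (limma adjusted p = 0.102).

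With Si306, PLK1 was measured on 1 array of U87 Si306 + 2 Gy (-0.50) and on both of U87 Si306 + 10 Gy (-0.54 and -0.60), and it was lower after loess and higher after median centring (0.39 and 0.06). NEK2 rose under both scalings, with 0.25 and 0.15 at 2 Gy, then 0.17 and 0.20 at 10 Gy after loess. The other NEK2 probe read -0.19 and -0.28 with Si306, so the direction of NEK2 with Si306 depended on the probe, while with PT alone that probe was also lower (-0.55 and -0.74). AURKA read -0.30 and -0.36 at 2 Gy and -0.28 and -0.25 at 10 Gy with Si306, lower after loess and higher after median centring (0.55 and 0.32). TTK, PBK and MELK lay between -0.32 (MELK at 2 Gy) and 0.03 (TTK at 10 Gy) with Si306 after loess, and all above 0 after median centring.

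In the chromosomal passenger complex, which corrects faulty spindle attachments, CDCA8 (borealin) was the member that fell with PT alone after loess. It read -0.33 and -0.28 at 2 Gy and -0.66 and -0.59 at 10 Gy, and 0.31 and -0.13 after median centring. Its kinase AURKB rose at 2 Gy (0.28 and 0.25) under both scalings and was not called at 10 Gy (0.03 and 0.04), and BIRC5 (survivin) and INCENP were called at neither dose. With Si306 at 2 Gy, AURKB, BIRC5 and CDCA8 fell after loess (-0.34, -0.26 and -0.35), and of these AURKB was also lower after median centring (-0.19). At 10 Gy, CDCA8 (-0.39), AURKB (-0.12) and INCENP (-0.13) fell after loess and BIRC5 was not called (0.05), and after median centring all 4 were above 0.

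All 4 genes of the spindle checkpoint and kinetochore fell after PT alone at both doses after loess, and BUB1B at both doses and BUB1 at 10 Gy did so after median centring. BUB1B (BubR1), which restrains CDC20, read -0.47 and -0.72 at 2 Gy and -0.58 and -0.60 at 10 Gy. BUB1, its partner kinase, read -0.50 and -0.45 at 2 Gy, then -0.72 and -0.61 at 10 Gy. MAD2L1 (MAD2) had 1 array at 2 Gy (-0.21) and read -0.35 and -0.35 at 10 Gy. ZWINT, which holds the ZW10 complex on the kinetochore, fell more at the lower dose, with -0.51 and -0.50 at 2 Gy and -0.11 and -0.22 at 10 Gy. With Si306, BUB1 and BUB1B were not called at either dose, whereas ZWINT read -0.78 and -0.84 at 2 Gy and -0.56 and -0.62 at 10 Gy. The ZWINT change at 2 Gy, -0.81 ± 0.037 (SE, n = 2 arrays, limma adjusted p = 2.92e-08), was the lowest value of all 43 genes with Si306 after loess, and it read 0.23 and 0.12 after median centring.

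Among the genes of chromosome separation, UBE2C, the APC/C's ubiquitin-conjugating enzyme, read -0.52 and -0.52 in U87 2 Gy and -0.91 and -0.84 in U87 10 Gy, a change of -0.87 ± 0.038 (SE, n = 2 arrays, limma adjusted p = 1.87e-08) at 10 Gy and a fall after median centring too (-0.32). CDC20, the activator that gives the APC/C its mitotic targets, read -0.13 and -0.11 at 2 Gy, then -0.52 and -0.48 at 10 Gy. CDCA3, which promotes mitotic entry, was at -0.28 and -0.43, with another probe at 0.03 at 2 Gy. PTTG1, securin, was higher after PT alone under both scalings (0.12 and 0.15 at 2 Gy, then 0.13 and 0.20 at 10 Gy) and lower with Si306 (-0.38 and -0.41), with 0.99 and 0.52 after median centring. ESPL1, separase, which securin blocks, was called in 1 configuration, U87 Si306 + 2 Gy, with -0.44 and -0.34. All 5 genes of this group fell with Si306 at 2 Gy, and 4 of 5 at 10 Gy, after loess, and all 5 were above 0 after median centring.

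Of the 7 spindle genes, 6 fell after each dose of PT alone after loess on the probe that stood for the gene, GTSE1 among them, whose other probe read above 0, and ASPM and TPX2 fell at 10 Gy after median centring too. TPX2, which activates AURKA on microtubules, read -0.45 and -0.48 at 2 Gy, then -0.71 and -0.61 at 10 Gy. ASPM, a spindle pole protein, read -0.31 and -0.27 at 2 Gy, then -0.66 and -0.72 at 10 Gy. HMMR, which binds microtubules near the poles, rose at 2 Gy (0.28 and 0.27) and was not called at 10 Gy (-0.04 and -0.11), and with Si306 at 2 Gy it read -0.52 and -0.46, with 0.36 after median centring. With Si306, ASPM was not called at either dose, with 0.18 on another probe at both, and TPX2 was at -0.18 and 0.06. NUSAP1, which bundles spindle microtubules around the chromosomes, had the largest fall of this group, with -0.79 and -0.70 in U87 Si306 + 2 Gy and -0.48 and -0.48 in U87 Si306 + 10 Gy, and stayed below 0 after median centring (-0.15 and -0.05). GTSE1 rose with Si306 at 10 Gy (0.29 and 0.34), and its other probe read 0.05 there. After PT alone that probe read 0.20 and 0.28 and the brighter one -0.15 and -0.31, so no direction is given for GTSE1 there. PRC1, which bundles the midzone microtubules, fell in the first 3 configurations after loess (-0.19, -0.31 and -0.28), and CKAP2 in all but U87 Si306 + 2 Gy (-0.02). The other CKAP2 probe read -0.30 and -0.33 with Si306. PRC1 and CKAP2 were above 0 in all 4 configurations after median centring.

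TOP2A and SMC4, both of chromosome structure, had their largest falls in different configurations. TOP2A (topoisomerase II alpha), which untangles the sister chromatids, read -0.47 and -0.48 at 2 Gy and -0.80 and -0.79 at 10 Gy with PT alone, and with Si306 it read -0.03 and -0.03 at 2 Gy, then 0.19 and 0.16 at 10 Gy. SMC4, the core of condensin, read -0.08 and -0.22 at 2 Gy and -0.29 and -0.28 at 10 Gy with PT alone. With Si306 it read -0.59 and -0.57 at 2 Gy, then -0.58 and -0.66 at 10 Gy on its brighter probe; the other probe was not well above background on most arrays and is not used. After median centring SMC4 with Si306 read 0.33 at 2 Gy and -0.01 at 10 Gy. TOP2A at 10 Gy of PT alone was lower under both scalings.

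ANLN and CEP55, both of cytokinesis, also had their largest falls in different configurations. ANLN (anillin), the scaffold of the contractile ring, read -0.64 and -0.68 in U87 2 Gy and -1.09 and -1.02 in U87 10 Gy, the lowest values of the 43 genes at that dose and a 2.08-fold fall with a log2 change of -1.06 ± 0.033 (SE, n = 2 arrays, limma adjusted p = 1.67e-09). It was lower under both scalings at both doses. With Si306 it read 0.07 and 0.13 at 2 Gy and 0.07 and 0.08 at 10 Gy. CEP55, which recruits the abscission machinery to the midbody, read -0.10 and -0.17 at 2 Gy and -0.26 and -0.27 at 10 Gy with PT alone. With Si306 it read -0.77 and -0.78 at 2 Gy, then -0.78 and -0.78 at 10 Gy. The change with Si306 at 10 Gy was -0.78 ± 0.032 (SE, n = 2 arrays, limma adjusted p = 2.43e-08). After median centring CEP55 read 0.17 at 2 Gy and -0.15 at 10 Gy. ECT2 switches on RhoA for furrowing. On its brightest probe it read 0.34 and 0.33 at 2 Gy and 0.07 and 0.06 at 10 Gy with PT alone. Its other probes were lower at both doses (-0.38 and -0.23 on the first, -0.17 and -0.32 on the last). With Si306 ECT2 read -0.12 and -0.15 on the brightest probe. The others read 0.32 and 0.13 on the first, -0.38 and -0.36 on the last, so no direction is given for ECT2. RACGAP1, its partner at the midzone, was lower with PT alone after loess (-0.44 and -0.40), with 0.15 and 0.09 after median centring, while its other probe, well above background on all 8 arrays, read 0.00 and -0.15 after loess. RACGAP1 was not called with Si306.

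The transcription factors of the group moved apart. FOXM1, which activates many G2/M genes, read -0.21 and -0.19 at 2 Gy and -0.31 and -0.55 at 10 Gy, and after median centring it was above 0 at both doses (0.37 and 0.03). MYBL2 (B-MYB), which joins the MuvB core at CHR promoters, read 0.39 and 0.39 at 2 Gy and 0.49 and 0.39 at 10 Gy, was higher under both scalings, and had the largest rise of the 43 genes at 10 Gy. With Si306 it had 1 array at 2 Gy (-0.13) and was not called at 10 Gy (-0.01 and -0.02).

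With Si306 added, 27 of the 43 genes were not called between the doses after loess. Of the rest, 15 were higher at 10 Gy than at 2 Gy and 1, WEE1, was lower, where 10.2% of all genes were higher and 12.6% lower, and the median difference was 0.04 against -0.01. After median centring it was 1 higher and 26 lower (16.1% and 38.9% of all genes), with a median of -0.24 against -0.12 for all genes, so no direction is given for the group. The count of 16 genes that differed fell to 10 without the first array of U87 Si306 + 2 Gy and to 8 without either array of U87 Si306 + 10 Gy. WEE1 was lower under both scalings, with -0.25 ± 0.048 (SE, limma adjusted p = 0.00537) after loess, and AURKB was higher under both, with 0.21 ± 0.056 (SE, limma adjusted p = 0.0213) after loess. BIRC5 (0.31), ESPL1 (0.32) and GTSE1 (0.28) had the largest rises after loess, and after median centring read -0.06, 0.05 and 0.17.

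**Figure D5:**
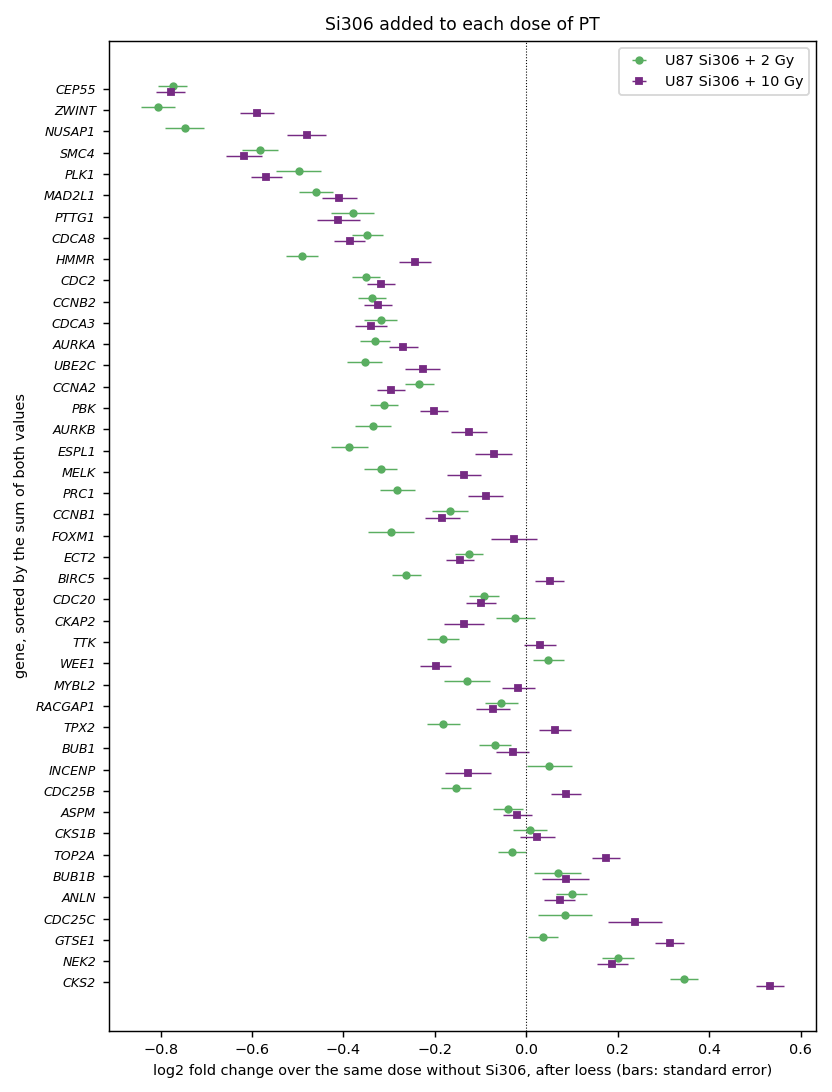
Log2 fold change over the same dose without Si306 after loess (horizontal axis) for each of the 43 genes (vertical axis, sorted by the sum of both values) in U87 Si306 + 2 Gy (green circles) and U87 Si306 + 10 Gy (purple squares), with standard errors as bars. CEP55 has the lowest sum, with -0.77 and -0.78, and CKS2 the highest, with 0.34 and 0.53; after median centring 40 and 36 of the 43 values were called above 0.

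Adding the 2 log2 changes of a dose estimates the combined treatment against untreated cells. This sum crosses the 2 slides, and irradiated RNA was read in both dyes. Treated RNA was in Cy5 in both changes, so a constant dye effect of a probe does not cancel but enters with each. Such an effect and the treatments cannot be told apart in the sums. In the model of separate channels the medians of these sums were 1.26 at 2 Gy and 1.20 at 10 Gy. For Si306 + 2 Gy, 35 of 43 genes were lower and 4 higher after loess (26.5% and 41.2% of all genes), with a median of -0.50 against 0.07 for all genes, and after median centring none was lower and 40 were higher (25.7% and 65.2% of all genes). For Si306 + 10 Gy it was 32 lower and 4 higher (27.3% and 38.5%), with medians of -0.59 and 0.05, and 1 lower and 34 higher after median centring (22.3% and 63.7%). The gene lower under both scalings at 10 Gy was CCNA2, with -1.09 ± 0.044 (SE, limma adjusted p = 1.45e-08) after loess. PLK1 (-1.31), UBE2C (2.14-fold), CCNA2, CEP55 (-1.04) and CDCA8 (-1.01) were at least 2-fold lower after loess at 10 Gy, and of these CEP55, UBE2C and CDCA8 were above 0 after median centring (0.07 to 0.22). Of all genes, 0.705% were at least 2-fold lower at 10 Gy. At 2 Gy it was ZWINT (-1.32; 0.34 after median centring), against 0.495% of all genes. ANLN reached -0.56 and -0.98 after loess, against -0.66 and -1.06 with PT alone. CEP55 reached -0.91 and -1.04, against -0.14 and -0.27 with PT alone. CKS2 was higher in both sums under both scalings.

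After loess, the members with and without a CHR in their window gave these values. In U87 10 Gy the 24 members with a CHR had a median of -0.32, and 19 of them fell. The 10 without one had a median of -0.16, and 5 fell, where 26.3% of all genes fell. In U87 2 Gy the medians were -0.20 and -0.26, the other way round, and 19 and 6 fell (24.9% of all genes). In U87 Si306 + 2 Gy the medians were -0.30 and -0.16, and 15 and 7 fell (28.1%). In U87 Si306 + 10 Gy they were -0.14 and -0.13, and 14 and 6 fell (27.1%). Between the doses of PT alone they were -0.15 and -0.20, and 10 and 7 were lower (11.1%). The split was not made after median centring. NEK2, without CHR letters in its window, and ANLN, which holds a pair, were the genes with the largest falls in U87 10 Gy. These are descriptions of 34 genes, with no test.

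Other genes of G2 and mitosis, from a list of 41 with condensin subunits, kinetochore genes and subunits of the APC/C, had medians closer to 0 after loess. After loess 19 fell and 15 rose in U87 2 Gy, where 24.9% of all genes fell and 32.1% rose, and 19 and 10 in U87 10 Gy (26.3% and 31.2% of all genes). With Si306 it was 24 and 8 at 2 Gy (28.1% and 38.8%), and 19 and 14 at 10 Gy (27.1% and 35.2%). The medians of this list were -0.02, -0.08, -0.13 and -0.08. After median centring 3 were lower and 33 higher, 9 and 25, 2 and 37, and 3 and 35 in this order, where 21.4% to 25.7% of all genes were lower and 57.4% to 63.3% higher, and the medians were 0.37, 0.33, 0.72 and 0.56. Between the doses of PT alone 12 were lower and 6 higher at 10 Gy (11.1% and 9.87% of all genes), and after median centring 12 and 1 (11.7% and 4.98%). KPNB1, importin beta, which holds spindle factors inactive until Ran releases them, was the 1 gene of this list at 2-fold or more in any of the 4 configurations, with 1.25 ± 0.035 (SE) in U87 2 Gy (limma adjusted p = 1.04e-09), and it was higher under both scalings. In the sums for the combined treatment, KPNB1 was at 1.02 at 2 Gy after loess. SPC24, a subunit of the NDC80 kinetochore complex, was at 1.16 at 10 Gy (1.55 after median centring). TROAP was at -1.50 and -1.41 in these sums after loess, and at 0.01 and -0.31 after median centring.

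Of 19 factors known at G2/M promoters, among them the E2F family, the RB family, NF-Y and subunits of MuvB, 5 fell and 8 rose in U87 2 Gy after loess (24.9% and 32.1% of all genes), and 7 and 9 in U87 10 Gy (26.3% and 31.2%). With Si306, 10 fell and 3 rose at 2 Gy (28.1% and 38.8%), and 10 and 4 at 10 Gy (27.1% and 35.2%). After median centring it was 0 and 17, 0 and 17, 1 and 17, and 2 and 14, where 21.4% to 25.7% of all genes were lower and 57.4% to 63.3% higher.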

How the data were processed

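The authors deposited Agilent scanner files with linear intensities of both dyes, made with Feature Extraction 9.5.3.1 per the file headers, and a table of log10 ratios of the same scans, which lay within 0.005 of the scanner's log ratio. Whole human genome arrays of 60-base probes (design build hg17) on 2 slides, 1 for PT alone and 1 for Si306, were read in 24 scans, 22 of which were used. Control spots and outlier flags (2.98% to 5.73% of spots) were left out. Mean signals were background-corrected with normexp (offset 50) and normalized within each scan by loess in limma 3.58.1 (R 4.3.3), and scans were averaged per array. A probe was kept if, in some configuration, each of the 2 arrays had it well above background in Cy3 or Cy5, and the brightest kept probe stood for a gene name (30316 of 41000 probes kept). A linear model over 8 arrays (4 residual degrees of freedom) with empirical Bayes and Benjamini-Hochberg adjustment over all genes gave each comparison, called at an adjusted p under 0.05. Dose differences and combined treatment were contrasts of this model. On simulated data with 22847 genes, 90.7% to 98.6% of changes of 0.25 and 100% of those of 0.5 and 1 (log2) were recovered. Of the calls, 5.8% to 10.4% were false. The simulation drew independent noise with each gene's fitted SD and left 22647 genes unchanged in each configuration. It held no dye, brightness or slide effect, so its share of false calls does not carry over to these data. The members and lists were chosen with earlier results of these data known. Array values are given for CCNB1, CDC2 and PLK1, for members at 2-fold or more, for the 5 largest rises and falls per configuration, and for others chosen by role. Alternatives were other background, dye and probe treatments, the scanner's ratio, the deposited ratio, the labels of the scans, a replicate block, a GC curve and leaving out an array. Promoter windows were RefSeq's (GRCh38.p14).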

Additional observations from a re-analysis of the deposited data

Results flagged for a closer look

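CDC25B, a phosphatase that activates CDK1, was the member whose change with Si306 was called in opposite directions at the 2 doses, on both arrays of each. It read -0.17 and -0.14 in U87 Si306 + 2 Gy and 0.08 and 0.09 in U87 Si306 + 10 Gy after loess, and the difference between the doses was 0.24 ± 0.046 (SE, limma adjusted p = 0.00485). After median centring the difference was 0.01. No other member was called in opposite directions at the doses, and no difference between doses reached 0.5. With PT alone CDC25B fell between the doses, by 0.20 on the log2 scale, under both scalings.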

How the results depend on the processing

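Of 396 summary values under 22 alternatives, 326 stayed within the spread between arrays or, for counts, within 1.5 times. Another 58 moved further and 12 changed sign. Of 1033 values of named genes 974 kept their direction and call. These totals include values that could not move: leaving out an array does not change the medians and fold changes of the other configurations. The deposited ratio nearly repeats the scanner's. Median centring turned 16 of 47 named values, and the model of separate channels 26 of 47. After median centring the member medians were 0.28, 0.032, 0.66 and 0.50 in U87 2 Gy, U87 10 Gy and the Si306 configurations at 2 and 10 Gy, with 32, 19, 40 and 36 members higher and 5, 14, 2 and 1 lower, 27 that differed between the doses with Si306, and combined medians of 0.93 and 0.44 with 0 and 1 lower by limma. The combined count of 0 at 2 Gy stands beside 40 members at an unadjusted p under 0.05, as many as were called higher. The values that turned were CCNB1 (0.10, 0.89 and 0.51 in U87 2 Gy and with Si306), CDC2 (0.39, 0.18, 0.63 and 0.33 in the 4 configurations), PLK1 (0.20, 0.39 and 0.058), UBE2C in U87 2 Gy (0.14), ZWINT (0.23 and 0.12 with Si306), and at Si306 + 2 Gy HMMR (0.36), SMC4 (0.33) and CEP55 (0.17). In the model of separate channels the medians were 0.65, 0.57, 0.68 and 0.76. In it 35, 34, 33 and 35 members were higher and 4, 5, 6 and 4 lower. Of all genes, 39.1% to 41% were higher and 40.2% to 41.9% lower in that model. Combined it gave 1.26 and 1.20 with 6 lower each (42.1% and 42.9% of all genes). There CCNB1 (0.36, 0.17, 0.75 and 0.76) and CDC2 (2.30, 2.17, 2.10 and 2.13) turned in all 4 configurations. In U87 2 Gy NEK2 (0.33), BUB1B (0.86), UBE2C (0.43), ANLN (2.15) and MYBL2 (-0.11) turned, in U87 10 Gy CCNA2 (0.72), NEK2 (0.15), UBE2C (0.19), TOP2A (0.85), ANLN (1.85) and MYBL2 (-0.045). With Si306, ZWINT (0.76 and 0.91), SMC4 (0.14 and 0.11), CEP55 (0.59 and 0.60) and, at 10 Gy, NUSAP1 (0.14) turned. The cause was not tested beyond the curve taken off by loess. The scanner's log ratio gave -0.29 and -0.42 with PT alone and -0.56 and -0.64 combined, and the authors' deposited values the same to 2 decimals. Without background subtraction the medians were -0.18, -0.31, -0.18 and -0.11, combined -0.45 and -0.53, with 7 members higher in U87 10 Gy (33.2% of all genes). With the mean of all probes, U87 10 Gy was at -0.31, U87 Si306 + 2 Gy at -0.18, the combined medians at -0.46 and -0.49, and NEK2 in U87 Si306 + 10 Gy at -0.044. With all scans under their labels the PT medians were -0.25 and -0.31 and the combined 10 Gy median -0.52. In U87 Si306 + 10 Gy 3 members rose (28.4% of all genes). By limma 0 and 5 members differed between the doses without and with Si306, with 2 and 12 at an unadjusted p under 0.05. With Si306 it called 3.88% of all genes higher and 4.77% lower between the doses. Without the arrays that held such a scan U87 10 Gy was at -0.32. Taking a GC curve off each array gave -0.25 and -0.14 with Si306. The replicate numbers of the labels do not pair the scans: correlations of same-numbered deviations ran from -0.084 to 0.086 over 30 pairs. The fit with the replicate block takes every scan as a sample and so counts repeat scans of the 8 arrays as replicates. It gave -0.14 in U87 Si306 + 10 Gy and -0.53 for the combined 2 Gy, with 33, 34, 29 and 27 members lower. Of all genes, 27.2% to 30.3% were lower in that fit. Between the doses, 36 and 24 members differed in it without and with Si306. Of all genes, 20.4% were higher and 22.6% lower at 10 Gy without Si306, and 23.9% and 28.5% with it. Leaving out 1 array at a time gave medians of -0.23 to -0.19, -0.35 to -0.32, -0.24 to -0.23 and -0.13 to -0.12, with 26 to 32, 30 to 31, 25 to 29 and 20 to 25 lower and 5 to 7, 3 to 4, 2 to 3 and 4 to 6 higher, 18 to 22 members that differed between the doses of PT alone and 8 to 16 with Si306, and combined medians of -0.51 to -0.49 and -0.60 to -0.57 with 31 to 35 and 31 to 32 lower. Dim probes limit none of the members, and the number of arrays limits the precision.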

Other observations

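Among factors known at G2/M promoters, some were named because the counts were small and RB1 and E2F1 after their values were seen. RB1, the retinoblastoma protein that restrains E2F, rose with PT alone (0.42 ± 0.031 and 0.43 ± 0.031, SE) under both scalings. With Si306 it was -0.69 ± 0.031 and -0.71 ± 0.031 after loess, and 0.23 and -0.10 after median centring. E2F1, an activator of S-phase genes, read -0.66 and -0.75 with Si306, and after median centring it was lower at 10 Gy alone (-0.17). The 5 factors lower in U87 2 Gy after loess were E2F7 (-0.62), NFYA (-0.26), E2F4 (-0.16), E2F5 (-0.16) and NFYC (-0.15), and all 5 were above 0 after median centring. The MuvB subunit LIN37 and TFDP2, an E2F partner, rose with Si306 at both doses under both scalings, with 0.25 and 0.20 for LIN37 and 0.25 and 0.17 for TFDP2. NFYA rose with Si306 at 2 Gy alone (0.21), and LIN9 (0.14) and NFYB (0.10) at 10 Gy alone, after loess.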
